A study of Danio rerio with 16 samples.

Results

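The RNA of 10 genes of steroid synthesis was followed across testes of zebrafish (Danio rerio, AB strain), 10 of the 32520 genes in the count table. They were taken by name or identifier, by a rule that holds no measured value but was drawn up with earlier results of these data known, as the steps by which a Leydig cell turns cholesterol into 11-ketotestosterone. They are star, a CYP11A1 gene (ENSDARG00000092696), fdx1b, hsd3b1, hsd3b2, cyp17a1, hsd17b3, cyp11c1, hsd11b2 and hsd20b2. The last, hsd20b2, stands beside these steps and is counted among the 10 because the rule names it. All 10 had enough read pairs to be tested. Fish of either ploidy were left untreated or received 17α-ethinylestradiol (EE2), a synthetic estrogen, and every group had 4 libraries of male gonad: triploid EE2, triploid control, diploid EE2 and diploid control. All fish were of the AB strain. Nothing in the sources used here gives the EE2 dose, how long exposure lasted, the age of the fish or how many fish stand behind a library.

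Leydig cells are the steroid-producing cells between the testis tubules. Luteinizing hormone from the pituitary acts on its receptor on these cells, and the steroidogenic factor 1 proteins (nr5a1 genes) drive transcription of the steroid enzymes. Cholesterol is carried into the mitochondrion, its side chain is cut off there, and enzymes of the endoplasmic reticulum turn the product into androgens. In fish the main circulating androgen of males is 11-ketotestosterone, which needs a further hydroxylation at carbon 11 and an oxidation of that hydroxyl group. Estrogens given to male fish are known to lower androgen production, through the pituitary and in the testis.

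Library totals ran from 7052508 to 17369549 read pairs, of which the 10 genes together took between 1444 and 18908. The submitters titled triploid EE2 replicate 2 an outlier, and it held the 1444. The tests used the 15 other libraries. Diploid control replicate 1 also stood apart: 6.86% of its read pairs came from mitochondrial genes, against 1.63% to 3.01% in the other 15 libraries. The label Leydig cell was checked against genes outside the 10. All 7 of those markers were detected. Their summed level was 133 to 228 CPM (counts per 1e6 read pairs of the library) in triploid EE2 and 614 to 1189 CPM in triploid control. In diploids it was 131 to 454 CPM under EE2 and 513 to 2369 CPM in controls. Most of the sum was insl3 in both control groups. Under EE2 insl3 alone ranged from 51.7 to 140 CPM in triploids and from 20.5 to 337 CPM in diploids. Gene by gene, 1 of the 7 was called lower under EE2 in diploids and 0 in triploids. Of all genes 0.422% were called lower in diploids and 0.0435% in triploids. EE2 and control libraries did not overlap for 2 of the 7 in diploids and 5 in triploids. The shares of all genes without overlap were 8.82% and 8.78%. In triploids insl3, lhcgr, nr5a1a and nr5a1b were lower without overlap, and gli1 was higher. The median log2 fold change of the 7 was -0.33 in diploids and -0.54 in triploids. The gene gli1, a target of hedgehog signalling, had higher means under EE2, 14.3 CPM in triploid EE2 and 10.4 CPM in triploid control, and 24.4 CPM in diploid EE2 and 19.7 CPM in diploid control, and was not called. The interrenal gland of the head kidney makes steroids with many of the same enzymes, and its defining gene cyp21a2 had at most 4 read pairs in any library used. Of its other markers, mc2r, the receptor of adrenocorticotropic hormone, had 12 to 72 read pairs and mrap, its accessory protein, 2 to 39, and neither was called under EE2. The interrenal list also holds nr5a1a, which is among the Leydig cell markers as well. Of the 3 interrenal genes tested, 1, nr5a1a, was called lower under EE2 in diploids, and 0 were called in triploids. These are bulk samples, so fewer Leydig cells and less RNA per Leydig cell cannot be told apart, and the data do not say which cells held the RNA of a given gene.

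**Figure D1:**
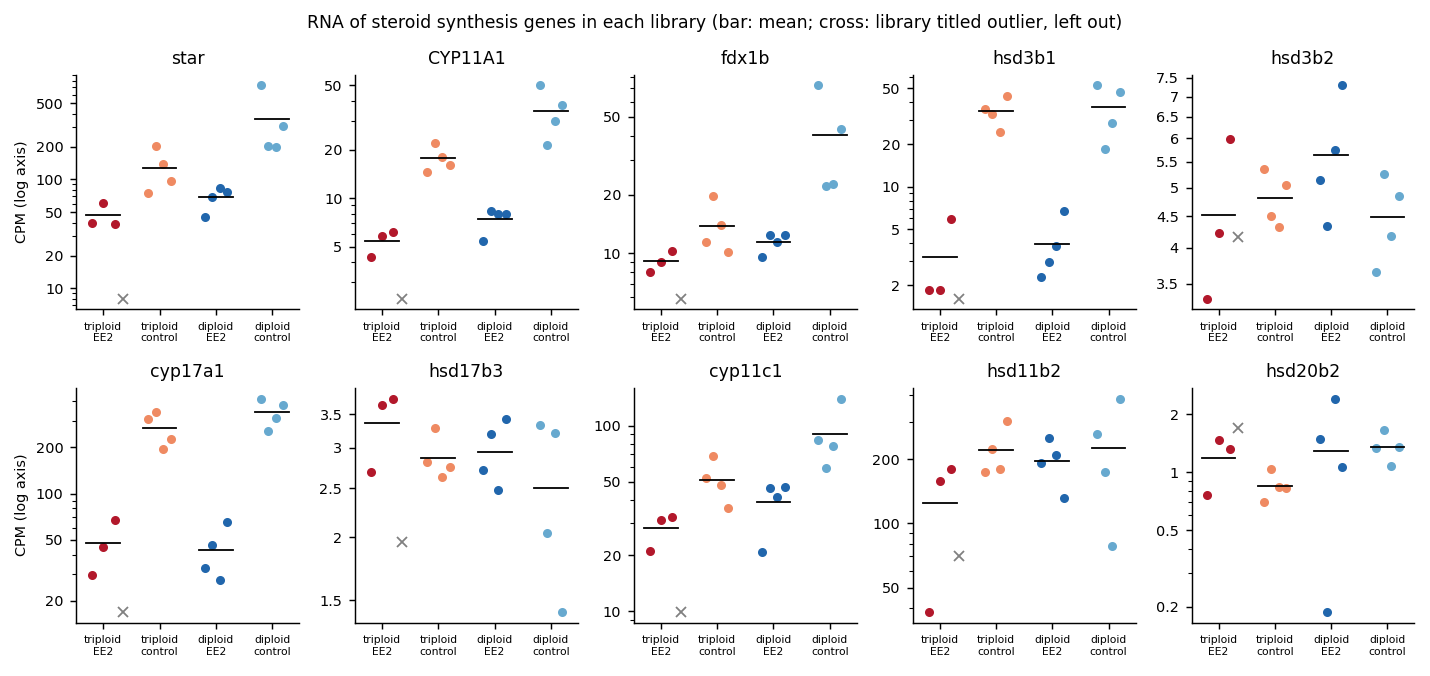
RNA of the 10 genes in each library, in CPM on a log axis, with each group's mean as a bar and the library titled outlier as a grey cross. For star, CYP11A1, hsd3b1, cyp17a1 and cyp11c1 every EE2 library lies below every control library of its ploidy. The genes hsd3b2, hsd17b3 and hsd20b2 stay at a few CPM or less in all groups.

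In diploids under EE2 6 of the 10 genes fell and none rose: star, CYP11A1, fdx1b, hsd3b1, cyp17a1 and cyp11c1, with falls of 2.33 to 9.33-fold. Of all 23007 genes tested, 2.36% were called in either direction, 1.94% higher and 0.422% lower. In triploids CYP11A1, hsd3b1 and cyp17a1 fell, by 3.26, 10.9 and 5.66-fold, where 0.104% of all genes were called in either direction, 0.0609% higher and 0.0435% lower. Genes were called at an adjusted p under 0.05 in edgeR's quasi-likelihood test, with Benjamini-Hochberg adjustment over all genes. The same 6 genes had EE2 and control libraries that did not overlap in diploids (8.82% of all genes, 3.36% with EE2 lower), and 5 of the 10 did not overlap in triploids (8.78% of all genes, 3.96% with EE2 lower). The median log2 fold change over the 10 genes was -1.51 in diploids and -0.84 in triploids, beside medians over all genes of -0.01 and 0.01.

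**Figure D2:**
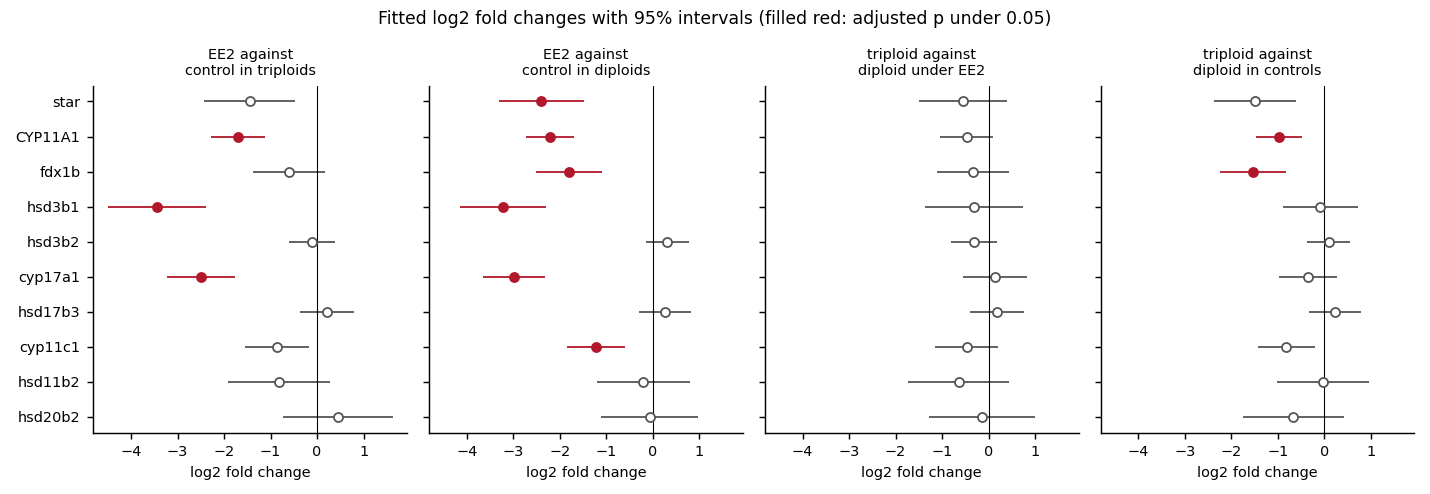
Fitted log2 fold change of each gene with its 95% interval in 4 comparisons, with filled red points for an adjusted p under 0.05. The largest falls under EE2 are those of hsd3b1 and cyp17a1 in both ploidies, and no gene is called between triploids and diploids under EE2.

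The triploid count rests on few libraries. It was 0 when triploid EE2 replicate 1 or 3 or triploid control replicate 1 was omitted, and 1 when triploid control replicate 4 was. Over all genes the triploid comparison had only 24 calls, and 2 to 35 when 1 library was left out. The diploid count stayed at 5 or 6 in all 15 omissions of 1 library. EE2 and control were compared within each ploidy, so these comparisons set no library in common against another. All 15 libraries were in 1 fit with a shared estimate of the spread, so the 2 comparisons are not independent. Each also shares its control libraries with the comparison of ploidy in controls, and its EE2 libraries with that of ploidy under EE2.

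Star, the steroidogenic acute regulatory protein, brings cholesterol to the inner mitochondrial membrane and is the acutely regulated step of the pathway. The star gene (ENSDARG00000006137, chromosome 8, 44703854 to 44707937, GRCz11) had 40.1, 60.9 and 39.3 CPM in triploid EE2 and 74.7, 202, 139 and 96.3 CPM in triploid control. In diploids it had 45.5, 68.7, 82.8 and 75.9 CPM under EE2 and 731, 203, 199.7 and 308 CPM in controls. Both EE2 groups lay below their controls without overlap, and diploid control replicate 1 stood far above the rest. The log2 fold change under EE2 was -2.40 ± 0.42 (SE) in diploids, an adjusted p of 0.00778. In triploids it was -1.45 ± 0.46, with an adjusted p of 0.56 (unadjusted 0.00646), so that fall did not pass the threshold. Without diploid control replicate 1, the library with the high mitochondrial share, the diploid change was -1.80 with an adjusted p of 0.0113. The part of the mitochondrial share in the height of star was not tested. The library titled outlier had 8.07 CPM, the lowest star level of the 16 libraries.

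CYP11A1 encodes the side-chain cleavage enzyme, which makes pregnenolone and so commits cholesterol to steroids. The gene ENSDARG00000092696 (chromosome 25, 22296666 to 22311542) had 4.28, 5.81 and 6.19 CPM in triploid EE2 and 14.4, 22, 18.02 and 15.95 CPM in triploid control. Diploid levels were 5.42, 8.35, 7.99 and 8.01 CPM under EE2 and 50.1, 21.2, 30.1 and 38.0 CPM in controls. Every EE2 library was below every control library of either ploidy. The log2 fold changes were -2.21 ± 0.24 in diploids (adjusted p = 0.000404) and -1.70 ± 0.27 in triploids (adjusted p = 0.034). The triploid call was lost in 8 of 15 omissions of 1 library, those of any triploid EE2 or triploid control library used and of diploid EE2 replicate 2, with log2 changes of -1.81 to -1.55 over all omissions. A neighbouring gene on the same chromosome carries the same symbol (ENSDARG00000002347). By default the counter used leaves out reads that align to more than 1 place, so how reads were shared between these copies is uncertain. That copy had means of 4.24 ± 0.56 CPM in triploid EE2, 9.57 ± 1.68 in triploid control, 5.04 ± 1.49 in diploid EE2 and 16.3 ± 3.6 CPM in diploid control (SD, n = 3, 4, 4 and 4). Its log2 fold change under EE2 was -1.68 ± 0.23 in diploids (adjusted p = 0.00105), and -1.18 ± 0.25 in triploids with an adjusted p of 0.119.

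The ferredoxin fdx1b passes electrons to the mitochondrial enzymes of steroid synthesis, and in zebrafish it is the ferredoxin of the gonads and the interrenal gland. Its gene (ENSDARG00000038956, chromosome 5, 22177033 to 22226645) had 8.02, 9.06 and 10.3 CPM in triploid EE2 and 11.4, 19.8, 13.9 and 10.2 CPM in triploid control. The diploid libraries had 9.62, 12.4, 11.4 and 12.4 CPM under EE2 and 72.7, 22.2, 22.6 and 43.6 CPM in controls. The diploid controls stood above all other libraries, and the highest triploid EE2 library overlapped the lowest triploid control. Its log2 fold change under EE2 was -1.80 ± 0.33 in diploids (adjusted p = 0.00984) and -0.61 ± 0.36 in triploids (adjusted p = 1). The 2 changes differed by 1.20 ± 0.48 on the log2 scale (unadjusted p 0.0264, adjusted p = 0.926), the lowest unadjusted p among the 10 genes for such a difference. With only the diploid groups in the fit, the diploid change had an adjusted p of 0.0624.

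The 3β-hydroxysteroid dehydrogenases turn pregnenolone and the later Δ5 steroids into their Δ4 forms, such as progesterone and androstenedione. The gene hsd3b1 (ENSDARG00000069926, chromosome 9, 21194445 to 21200464) had 1.87, 1.87 and 5.89 CPM in triploid EE2 and 35.8, 33.1, 24.6 and 43.8 CPM in triploid control. Diploids had 2.30, 2.95, 3.796 and 6.71 CPM under EE2 and 52.6, 18.7, 28.4 and 46.9 CPM in controls. EE2 and control libraries did not overlap in either ploidy, and within each treatment the ploidies did. This was the steepest fall of the 10 genes in both ploidies, with log2 fold changes of -3.22 ± 0.43 in diploids (adjusted p = 0.00121) and -3.45 ± 0.50 in triploids (adjusted p = 0.023). Triploid EE2 replicate 4 held the one high value of its group, and without it the triploid change was -4.19 with an adjusted p of 0.0153. The triploid call was lost in 4 of 15 omissions, without triploid EE2 replicates 1 or 3 or triploid control replicates 1 or 4, with adjusted p values up to 0.151.

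The related gene hsd3b2 (ENSDARG00000019747, chromosome 20, 1272526 to 1276175) encodes an enzyme of the same kind, yet its RNA did not follow. It had 3.32 to 5.99 CPM in triploid EE2, 4.32 to 5.37 in triploid control, 4.33 to 7.30 in diploid EE2 and 3.66 to 5.26 CPM in diploid control. The groups overlapped throughout. Its log2 fold change under EE2 was 0.31 (95% interval -0.15 to 0.77) in diploids and -0.10 (-0.60 to 0.40) in triploids, with adjusted p values of 0.478 and 1. Those intervals end above the change of hsd3b1 in the same fish.

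The enzyme of cyp17a1, a 17α-hydroxylase and 17,20-lyase, turns progestogens into the precursors of androgens. The gene (ENSDARG00000033566, chromosome 13, 28601195 to 28610965, reverse strand) had 29.2, 45.0 and 67.6 CPM in triploid EE2 and 305, 341, 196 and 227 CPM in triploid control. In diploids it had 32.8, 46.4, 27.5 and 65.4 CPM under EE2 and 418, 255, 313 and 378 CPM in controls. The highest EE2 library of either ploidy was far below the lowest control. The log2 fold changes were -2.99 ± 0.31 in diploids (adjusted p = 0.000363) and -2.50 ± 0.34 in triploids (adjusted p = 0.0165). The triploid call was lost in 3 of 15 omissions, without triploid EE2 replicate 1 or 3 or triploid control replicate 1 (log2 -2.85 to -2.25 over all omissions), and had an adjusted p of 0.0695 with only the triploid groups in the fit. Its coefficient of variation in diploid controls was 21.05%, against 69.96% for star and 59.1% for fdx1b.

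The enzyme of hsd17b3 reduces 17-ketosteroids, making testosterone from androstenedione. Its gene (ENSDARG00000023287, chromosome 8, 29852353 to 29876413) had 2.70 to 3.76 CPM in triploid EE2, 2.63 to 3.29 in triploid control, 2.47 to 3.42 in diploid EE2 and 1.42 to 3.33 CPM in diploid control. The 4 groups overlapped. Its log2 fold change under EE2 was 0.27 (95% interval -0.29 to 0.82) in diploids and 0.22 (-0.36 to 0.80) in triploids, neither past the threshold.

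The enzyme of cyp11c1 hydroxylates steroids at carbon 11, the first of the steps particular to 11-oxygenated androgens, and it also completes cortisol in the interrenal gland. Its gene (ENSDARG00000042014, chromosome 16, 54459135 to 54471235, reverse strand) had 21.2, 31.0 and 32.1 CPM in triploid EE2 and 52.0, 69.0, 47.9 and 36.1 CPM in triploid control. Among diploids it had 20.9, 46.0, 41.2 and 46.8 CPM under EE2 and 84.2, 59.2, 77.7 and 140.2 CPM in controls. EE2 and control did not overlap in either ploidy, though the gaps were narrower than for hsd3b1 and cyp17a1. The log2 fold change was -1.22 ± 0.29 in diploids (adjusted p = 0.0435) and -0.87 ± 0.32 in triploids (adjusted p = 0.69). The diploid call was the least stable of the 6. It was lost in 10 of 15 omissions, without triploid EE2 replicate 3 or 4, triploid control replicate 1 or 3, diploid EE2 replicate 1, 2 or 3, or diploid control replicate 1, 3 or 4, with adjusted p values of 0.0367 to 0.109 over all omissions.

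The enzyme of hsd11b2 oxidises the hydroxyl group at carbon 11, giving the 11-keto form, and also inactivates cortisol. Its gene (ENSDARG00000001975, chromosome 7, 35112052 to 35126374, reverse strand) had 38.5, 157 and 179.9 CPM in triploid EE2 and 175, 223, 180.3 and 301 CPM in triploid control. In diploids it had 192, 250.1, 208 and 131 CPM under EE2 and 263, 174, 78.6 and 385 CPM in controls. The groups overlapped and single libraries differed several-fold within a group. The log2 fold change was -0.20 (95% interval -1.20 to 0.79) in diploids and -0.81 (-1.91 to 0.28) in triploids, with adjusted p values of 0.859 and 1. These intervals are wide.

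The enzyme of hsd20b2 is known in zebrafish for reducing cortisone, and stands beside the pathway rather than in it. Its gene (ENSDARG00000031336, chromosome 5, 38200807 to 38214807) had only 3 to 42 read pairs in the 15 libraries. That was 0.76 to 1.48 CPM in triploid EE2, 0.70 to 1.04 in triploid control, 0.19 to 2.42 in diploid EE2 and 1.07 to 1.65 CPM in diploid control. No comparison passed the threshold, and the 95% interval of the change under EE2 in diploids was -1.12 to 0.98 on the log2 scale.

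Between genes, levels can be compared only per length, here as CPM per kilobase of exon (FPKM). The order of the mean FPKM was cyp17a1 95.5, star 92.9, hsd11b2 84.7, hsd3b1 22.4, cyp11c1 20.6, fdx1b 14.2 and CYP11A1 9.81 in triploid controls. In diploid controls star came first at 261, before cyp17a1 at 122, hsd11b2 at 86.8, fdx1b at 41.4, cyp11c1 at 36.3, hsd3b1 at 23.9 and CYP11A1 at 19.4. In both control groups hsd3b2, hsd17b3 and hsd20b2 came last, below every library of the 7 others, at 3.51, 1.18 and 0.29 FPKM in triploid controls and 3.28, 1.03 and 0.46 in diploid controls. Neighbours in the diploid control order overlapped down to CYP11A1. The neighbouring gene with the CYP11A1 symbol is not in this order. It averaged 3.38 FPKM in triploid controls and 5.76 in diploid controls, and how reads were shared between these copies is uncertain.

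Under EE2 the order changed at the top and in the middle. In triploid EE2 hsd11b2 led with a mean of 48.3 FPKM, before star at 33.9, cyp17a1 at 16.9, cyp11c1 at 11.3 and fdx1b at 9.36. In diploid EE2 it led with 75.4 FPKM, before star at 49.5, cyp11c1 at 15.6, cyp17a1 at 15.4 and fdx1b at 11.8. The libraries of hsd11b2 and star overlapped in both EE2 groups, as did those of cyp17a1 and cyp11c1. The 2 3β-hydroxysteroid dehydrogenase genes ended at like levels per length under EE2: hsd3b1 had a mean of 2.09 and hsd3b2 of 3.30 FPKM in triploid EE2, and 2.57 and 4.12 FPKM in diploid EE2, with overlapping libraries in both.

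**Figure D3:**
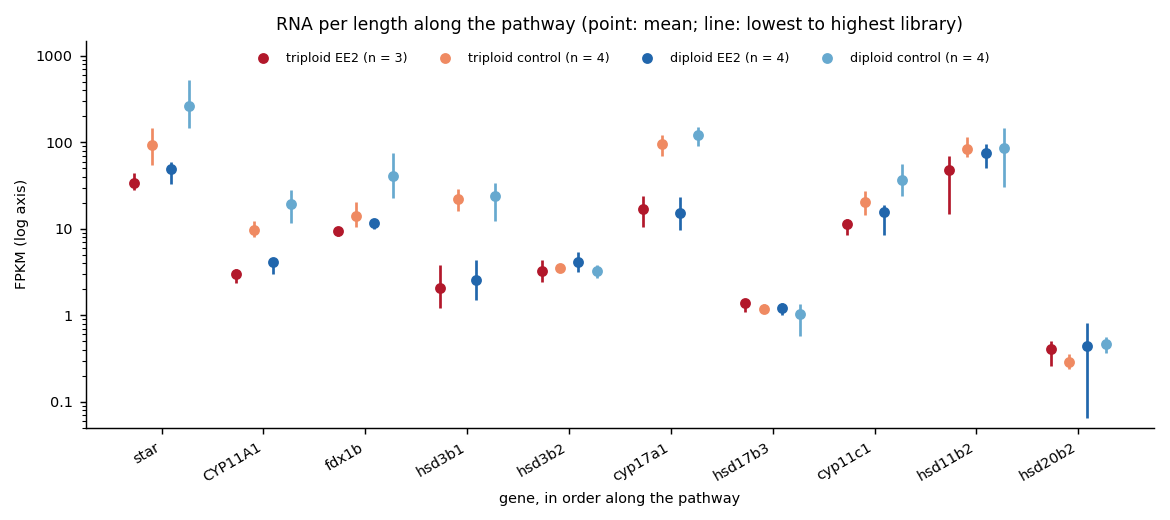
Level per length (FPKM, log axis) of the 10 genes, in order along the pathway with hsd20b2, which stands beside it, last, as group means with the range of the libraries. The EE2 means of hsd3b1 come down to those of hsd3b2, and hsd11b2 and star lead under EE2.

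Set against cyp17a1 within each library, the genes did not keep 1 ratio. These ratios were looked at after the values had been seen and carry no test. Cyp17a1 itself fell under EE2, so the ratio rises for any gene that fell less or not at all. Per length, fdx1b stood at 0.436 to 0.789 of cyp17a1 in triploid EE2 and 0.108 to 0.204 in triploid control, and at 0.544 to 1.19 in diploid EE2 and 0.208 to 0.501 in diploid control. The ratio was higher under EE2 in every library of both ploidies. The ratio of cyp11c1 behaved likewise, at 0.534 to 0.816 in triploid EE2 and 0.179 to 0.275 in triploid control, and at 0.715 to 1.69 in diploid EE2 and 0.227 to 0.418 in diploid control. For hsd3b1 the ratio was 0.0758 to 0.159 in triploid EE2, below the 0.177 to 0.352 of triploid control, while in diploids 0.116 to 0.252 under EE2 overlapped 0.134 to 0.23 in controls. The ratios of star overlapped in both ploidies, at 1.18 to 2.79 in triploid EE2 and 0.498 to 1.44 in triploid control, and at 2.36 to 6.12 in diploid EE2 and 1.30 to 3.55 in diploid control. The ratios of hsd3b2 and hsd17b3 also rose under EE2 without overlap in both ploidies. Their mean log2 ratios rose by 3.36 and 3.35 in diploids and by 2.42 and 2.765 in triploids. Those of fdx1b and cyp11c1 rose by 1.4 and 1.82 in diploids and by 1.985 and 1.69 in triploids. The ratios of CYP11A1 and hsd11b2 rose without overlap in diploids only, and that of hsd20b2 in triploids only.

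**Figure D4:**
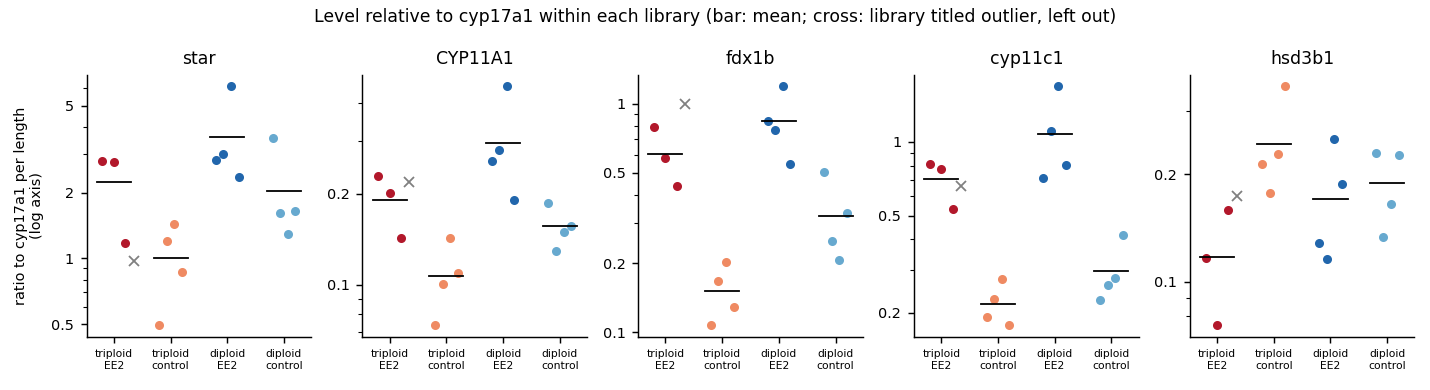
Level of 5 genes divided by the level of cyp17a1 in the same library, per length, on a log axis. The ratios of fdx1b and cyp11c1 are higher in every EE2 library than in the controls of the same ploidy, while those of star overlap. Cyp17a1 itself fell under EE2, which raises the ratio of any gene that fell less. The ratios of hsd3b2 and hsd17b3, not shown here, also rose without overlap in both ploidies.

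Between triploid and diploid controls CYP11A1 and fdx1b were called and star was not. CYP11A1 was 1.97-fold lower in triploid controls (17.6 ± 3.3 CPM) than in diploid controls (34.9 ± 12.3 CPM, SD, n = 4 each). The fdx1b gene was 2.89-fold lower, at 13.8 ± 4.2 CPM in triploid controls and 40.3 ± 23.8 CPM in diploid controls. These 2 of the 10 were called, where 2.74% of all genes were called in either direction, 0.574% higher and 2.16% lower in triploids. The log2 fold changes were -0.98 ± 0.23 (adjusted p = 0.0352) for CYP11A1, whose libraries overlapped, and -1.53 ± 0.33 (adjusted p = 0.0202) for fdx1b, whose libraries did not. Only hsd20b2 was also without overlap, where 11.9% of all genes were so in either direction and 6.67% with triploids lower, and its change of -0.67 ± 0.51 was not called. The median over the 10 genes was -0.51, beside -0.04 over all genes. Over the 7 Leydig cell markers outside the 10 it was -0.59, with all 7 negative and 2 called lower.

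Both calls rest on few libraries. CYP11A1 was lost without triploid control replicate 1, 3 or 4 or diploid control replicate 1, 3 or 4, and fdx1b without triploid control replicate 1, 3 or 4 or diploid control replicate 4. With only the control groups in the fit neither was called (adjusted p = 0.102 for CYP11A1 and 0.101 for fdx1b), and CYP11A1 was not called by limma-voom or with the titled outlier included (adjusted p of 0.00408 to 0.102 over its 10 alternatives). Without diploid control replicate 1, which had the highest star, CYP11A1 and fdx1b levels of its group and the high mitochondrial share, the change of fdx1b was -1.09 and remained called (adjusted p = 0.0349), and that of CYP11A1 was -0.75 and was not. The part of the mitochondrial share in these differences was not tested. For star the log2 fold change was -1.49 ± 0.41 with an adjusted p of 0.0736. It was -0.88 without diploid control replicate 1 (adjusted p = 0.163), and it was called without diploid control replicate 2 (adjusted p = 0.0401). Relative to cyp17a1 per length, fdx1b stood at 0.108 to 0.204 in triploid controls and 0.208 to 0.501 in diploid controls, a narrow gap with no overlap.

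The later enzymes did not pass the threshold between control groups. Cyp17a1 averaged 267 ± 67 CPM in triploid controls and 341 ± 72 CPM in diploid controls (SD, n = 4 each), a log2 fold change of -0.35 (95% interval -0.97 to 0.27). For hsd3b1 the averages were 34.3 ± 7.9 CPM in triploid controls and 36.7 ± 15.8 CPM in diploid controls, and the change was -0.09 (-0.90 to 0.72). Cyp11c1 averaged 51.3 ± 13.6 CPM in triploid controls and 90.3 ± 34.9 CPM in diploid controls, a change of -0.82 ± 0.29 with an adjusted p of 0.161. The averages of hsd11b2 were 219.6 ± 58.1 CPM in triploid controls and 224.9 ± 130.4 CPM in diploid controls, a change of -0.04 (-1.03 to 0.96).

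Under EE2 none of the 10 genes was called between triploids and diploids. Of all genes 5.82% were called, 1.05% higher and 4.77% lower in triploids. At that share a count of 0 among 10 genes does not set them apart from all genes. By edgeR 0 of the 10 had an unadjusted p under 0.05, and DESeq2 and limma-voom also called 0. No gene of the 10 was without overlap, against 20.3% of all genes in either direction and 12.1% with triploids lower. The log2 fold changes lay between -0.64 for hsd11b2 and 0.19 for hsd17b3, with a median of -0.33 beside 0.00 over all genes. The 7 Leydig cell markers outside the 10 had a median of -0.65, with all 7 negative and 2 called lower. Star averaged 46.8 ± 12.3 CPM in triploid EE2 (SD, n = 3) and 68.2 ± 16.2 CPM in diploid EE2 (n = 4), a change of -0.55 (95% interval -1.498 to 0.40). Cyp17a1 averaged 47.3 ± 19.3 CPM in triploid EE2 and 43.0 ± 16.9 CPM in diploid EE2, a change of 0.14 (-0.54 to 0.82).

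The change under EE2 in triploids was also tested against that in diploids, gene by gene. No gene of the 10 was called, nor any of the 23007 genes (0% called), while 5.32% of all genes and 1 of the 10, fdx1b, had an unadjusted p under 0.05. DESeq2 and limma-voom called 0 of the 10. The difference was 0.94 (95% interval -0.33 to 2.22) for star, 0.51 (-0.25 to 1.26) for CYP11A1, 0.49 (-0.44 to 1.41) for cyp17a1 and -0.22 (-1.55 to 1.102) for hsd3b1 on the log2 scale. A call in one ploidy and not in the other, as for star, fdx1b and cyp11c1, was therefore not shown to be a difference between ploidies.

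Likeness of profile across the 15 libraries was measured as the root mean square distance in centred log2 CPM, given as a description. Star and CYP11A1 were nearest to each other (0.36), fdx1b was nearest to star (0.43), cyp11c1 to fdx1b (0.45), and hsd3b1 and cyp17a1 to each other (0.52). The genes hsd3b2 and hsd17b3 were nearest to each other (0.44), and hsd11b2 and hsd20b2 were nearest to hsd3b2 at 0.74 and 0.67. Among other genes whose log2 CPM averaged 1 or more, the 5 nearest to the mean profile of star, CYP11A1, cyp17a1 and hsd3b1 were si:dkeyp-77h1.4 (0.47), ENSDARG00000038226 with no symbol (0.55), ppp1r1c (0.56), the other CYP11A1 gene (0.57) and slc4a4a (0.70). The gene si:dkeyp-77h1.4 averaged 23.0 ± 6.4 CPM in triploid EE2, 94.9 ± 8.9 in triploid control, 26.7 ± 12.4 in diploid EE2 and 101.2 ± 15.1 CPM in diploid control. The bicarbonate transporter gene slc4a4a averaged 32.1 ± 4.7 CPM in triploid EE2, 77.0 ± 15.6 in triploid control, 22.5 ± 3.7 in diploid EE2 and 89.0 ± 22.7 CPM in diploid control. The 5 depended on the libraries used. In the 8 diploid libraries alone si:dkeyp-77h1.4, ENSDARG00000038226 and the other CYP11A1 gene were again among the 5 nearest. There slc4a4a ranked 8 and ppp1r1c was not among the 10 nearest.

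Outside the 10 genes, 73 symbols of the pathway were listed, of which 65 matched a gene and 61 could be tested. Under EE2 in diploids 2 of the 61 rose and 3 fell, where 1.94% of all genes were called higher and 0.422% lower. The genes that rose code for orphan nuclear receptors that repress steroidogenic factor 1 and other receptors. The gene nr0b1 (DAX1) had 23.2, 21.3, 28.2 and 16.6 CPM in diploid EE2 and 4.33, 6.83, 6.004 and 8.97 CPM in diploid control, a log2 fold change of 1.75 ± 0.22 (adjusted p = 0.000877). The gene nr0b2a (SHP) had 11.8, 10.5, 10.8 and 8.25 CPM in diploid EE2 and 0.83, 0.55, 0.75 and 1.64 CPM in diploid control, a log2 fold change of 3.40 ± 0.42 (adjusted p = 0.000877). Neither overlapped between EE2 and control.

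Those that fell were the other CYP11A1 gene, cyp17a2 and nr5a1a. The enzyme of cyp17a2 is a 17α-hydroxylase that in fish lacks most lyase activity. The RNA of cyp17a2 averaged 17.4 ± 5.4 CPM in diploid EE2 and 45.1 ± 9.1 CPM in diploid control, a log2 fold change of -1.37 ± 0.31 (adjusted p = 0.0313). The steroidogenic factor 1 gene nr5a1a had 39.3, 44.8, 48.5 and 49.2 CPM in diploid EE2 and 70.4, 54.2, 71.4 and 94.98 CPM in diploid control, a change of -0.68 ± 0.15 (adjusted p = 0.0293). The groups did not overlap for either gene. The receptor of luteinizing hormone, lhcgr, averaged 9.15 ± 6.55 CPM in diploid EE2 and 11.8 ± 2.1 CPM in diploid control, a change of -0.33 ± 0.34 that was not called. Its diploid EE2 mean held 1 high library at 18.9 CPM, with the others at 4.88 to 7.22. In triploids lhcgr had 3.45 to 5.39 CPM under EE2 and 5.45 to 8.25 CPM in controls, lower without overlap and not called.

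In triploids 0 of the 61 genes were called under EE2 by edgeR, with 10 at an unadjusted p under 0.05. DESeq2 called 3 and limma-voom 0. Of the 16 tested genes for control of the pathway, 6 were without overlap in triploids and 4 in diploids. The shares of all genes were 8.78% and 8.82%. In triploids lhcgr, nr5a1a and nr5a1b were lower without overlap, and nr0b1, nr0b2a and esr2a were higher. The genes nr0b1 and nr0b2a had log2 fold changes of 1.28 ± 0.24 (adjusted p = 0.0602) and 2.73 ± 0.50 (adjusted p = 0.053), with no overlap of EE2 and control. In triploid EE2 nr0b1 averaged 10.5 ± 1.6 CPM, against 4.29 ± 0.84 in triploid control, and nr0b2a averaged 2.74 ± 1.17 CPM in triploid EE2, against 0.41 ± 0.32 in triploid control (SD, n = 3 and 4). Under EE2 both were lower in triploids than in diploids, by log2 fold changes of -1.098 (adjusted p = 0.0126) and -1.93 (adjusted p = 0.0142). In that comparison 5 of the 61 genes fell and none rose, where 4.77% of all genes were called lower and 1.05% higher. Besides nr0b1 and nr0b2a these were esr2a, an estrogen receptor, fshr, the receptor of follicle-stimulating hormone, and gata6. All 5 belonged to the 16 tested genes for control of the pathway. Of those 16, 15 had negative changes and 9 were without overlap, where 20.3% of all genes were without overlap. With the titled outlier in the fit the count was 2. Between control groups 3 fell and none rose: cyp17a2 (log2 -1.47, adjusted p = 0.0187), fshr (-0.96, adjusted p = 0.038) and esr2a (-0.74, adjusted p = 0.00323). Of all genes 2.16% were called lower there, and the count of 3 was 1 with only the control groups in the fit.

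**Figure D5:**
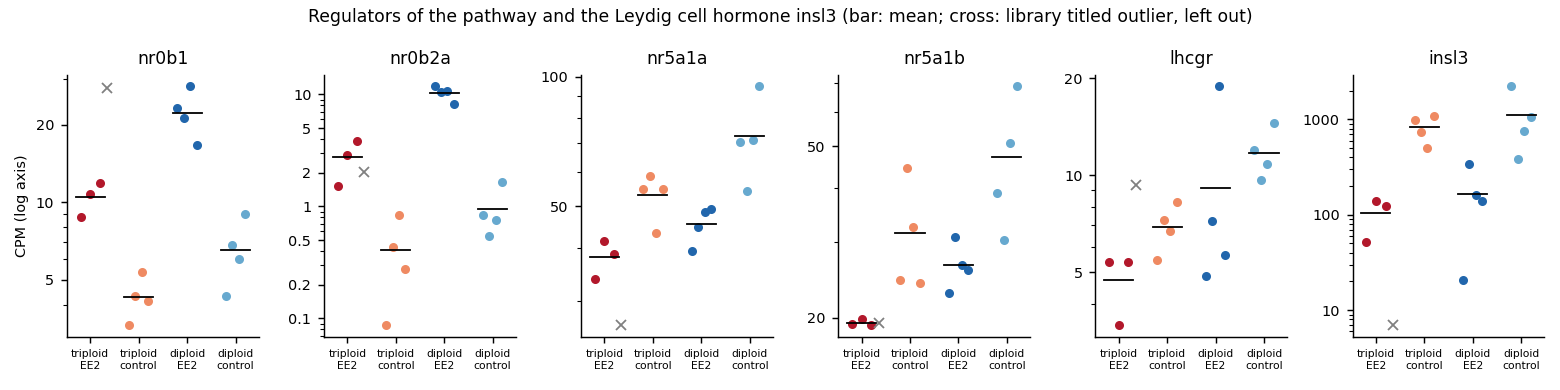
Levels of 5 regulators of the pathway and of insl3 in each library (CPM, log axis), with group means as bars and the library titled outlier as a grey cross. The genes nr0b1 and nr0b2a are higher in every EE2 library than in the controls of the same ploidy, and insl3 and nr5a1a are lower.

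By kind, none of 16 genes of cholesterol delivery was called in any of the 5 comparisons by edgeR, where at most 1 had an unadjusted p under 0.05. DESeq2 called 1 of them under EE2 in diploids and 1 between control groups, and limma-voom 0. Of 7 electron donors none was called either, with 1 or 2 at an unadjusted p under 0.05 in each of the 4 comparisons of groups, and DESeq2 called 1 in diploids. The closest was fdxr, the reductase that supplies fdx1b, at 32.4 ± 11.4 CPM in diploid EE2 and 65.3 ± 20.6 CPM in diploid control (log2 -1.001 ± 0.28, adjusted p = 0.0755). The other ferredoxin gene fdx1 had a change of -0.14 ± 0.33 there. Under EE2 in triploids 3 of the 7 electron donors were without overlap, all of them lower, where 8.78% of all genes were without overlap. The median log2 fold change of the 7 there was -0.42. In diploids 0 of the 7 were without overlap. At most 5.82% of all genes were called in any of the 5 comparisons, so 0 calls among 16 or 7 genes do not set them apart. The aromatase gene cyp19a1a, with 0 to 3 read pairs, and cyp21a2 were too low to be tested.

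Of markers of other cells, 4 of 5 smooth muscle genes rose under EE2 in diploids and 0 were called in triploids. In diploids 2 of 5 endothelium, 1 of 4 erythrocyte and 1 of 8 kidney genes also rose, and in triploids 0 of each were called. Of all genes 1.94% were called higher in diploids and 0.0609% in triploids. Of the Sertoli cell genes 0 of 9, and of the germ cell genes 0 of 8, were called under EE2 in either ploidy. Between ploidies, 4 of the 9 Sertoli cell genes were lower and 1 higher in triploid controls, and 4 were lower in triploids under EE2. Of 5 smooth muscle genes 1 was lower in triploid controls and 5 in triploids under EE2, and of the germ cell genes 0 were called. Of all genes 2.16% were lower and 0.574% higher in triploid controls, and 4.77% were lower in triploids under EE2. The summed level of the smooth muscle genes was 598 to 729 CPM in triploid EE2 and 348 to 424 in triploid control, and 1326 to 1746 CPM in diploid EE2 and 441 to 692 in diploid control. The 9 Sertoli cell genes summed to 537 to 628 CPM in triploid EE2 and 494 to 658 in triploid control, and to 1436 to 1989 CPM in diploid EE2 and 1121 to 1603 in diploid control. Germ cell markers (8 genes) summed to 3572 to 3922 CPM in triploid EE2, 4020 to 4340 in triploid control, 3139 to 3691 in diploid EE2 and 3599 to 4139 CPM in diploid control. Their part in the changes of the 10 genes was not tested. The Leydig cell hormone insl3, which is no steroid enzyme, had 51.7, 140.2 and 125 CPM in triploid EE2 and 993, 729, 505 and 1081 CPM in triploid control. In diploids it had 20.5, 337, 162 and 141 CPM under EE2 and 2213, 381, 755 and 1065 CPM in controls. Every EE2 library was below every control library of its ploidy, but the spread was wide, and the log2 fold changes of -2.97 ± 0.78 in triploids and -2.74 ± 0.69 in diploids had adjusted p values of 0.393 and 0.0559.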

How the data were processed

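RNA was sequenced from testes of 16 libraries, 4 per group, as total RNA depleted of ribosomal RNA and made into strand-specific libraries, per the labels' protocols. The deposited table held counts of read pairs per gene, which the authors made with featureCounts 2.0.6 on the reverse strand over exons of the Ensembl 113 annotation of GRCz11, per the file headers, from STAR alignments, per the submitters' processing notes. By default that counter leaves out reads with several alignments or genes. How the aligner was set is not given in the sources used here. A second, other kind of value in the deposited table is each gene's exon length in bases, from which FPKM was computed. Symbols were matched for 29201 of 32520 genes.

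Counts were fitted with edgeR 4.0.16 in R 4.3.3 (TMM factors, filterByExpr by group, robust glmQLFit, 1 mean per group), which left 23007 genes and a median biological coefficient of variation of 20.4%. Standard errors are the absolute log2 fold change over the square root of F. Alternatives used DESeq2 1.42.0, limma 3.58.1 and omissions of libraries. The scripts were tested on simulated data. CPM is a count divided by library size times TMM factor. Nothing says that replicates came from separate animals, so the p-values speak only of spread among these samples, which may be technical. No 2 libraries were identical. Named genes are the 10 members, the pathway genes called or singled out in the naming rule (lhcgr, nr5a1a, nr0b1, cyp17a2, cyp19a1a, cyp21a2) and the 5 nearest profiles. Ratios to cyp17a1, fdxr, fdx1, insl3 and nr5a1b were named after values were seen. Members and lists were chosen with earlier results of these data known.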

Additional observations from a re-analysis of the deposited data

Results flagged for a closer look

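In 2 of 40 sets of 4 libraries, 1 for each gene and group, a single library lay far from the others, with a gap to its nearest neighbour past the critical value of Dixon's test at 95%. Chance gives about 1 in 20 such sets. CYP11A1 (ENSDARG00000092696) in diploid EE2 replicate 1 was the low one, at 5.42 CPM, where the other diploid EE2 libraries had 7.99 to 8.35 CPM. The same library had the lowest star, fdx1b, hsd3b1 and cyp11c1 levels of its group. Its erythrocyte markers summed to 747 CPM, where the diploid EE2 group had a lowest sum of 42.5 and a median of 55.2 CPM. Every triploid library used and every diploid control library had at most 44.8 CPM. The part of these markers in the levels of the steroid genes was not tested. For hsd3b1 in triploid EE2 replicate 4, the high one, the level was 5.89 CPM, where the other triploid EE2 libraries, the one titled outlier included, had 1.61 to 1.87 CPM.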

How the results depend on the processing

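The number of the 10 genes called under EE2 in diploids (6) was 5 to 6 in 15 omissions of 1 library and stayed within 1.5 times under every alternative. It was lowest with only the diploid groups in the fit, where fdx1b and cyp11c1 were not called. Under EE2 in triploids (3) the number was 0 to 3 in the omissions and 2 by limma-voom. With only the triploid groups in the fit cyp17a1 was not called. Between control groups (2) the number was 0 to 3 in the omissions, 1 by limma-voom and 1 with the titled outlier included. It was 0 with the replicate block and 0 with only the groups compared in the fit. Between ploidies under EE2 and for the difference of the EE2 changes it was 0 throughout. The causes were not tested. No label says whether the replicate numbers mark a shared animal, batch or day. For 21 pairs of the same number the correlations of deviations were -0.17 to 0.12, beside -0.32 to 0.23 for 63 other pairs. These correlations cannot decide whether the numbers pair the libraries. With the replicate block the calls of cyp11c1 in diploids and CYP11A1 in triploids were also lost, and 4 of all genes were called under EE2 in triploids, against 24 without it.

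Over all genes, DESeq2 called 1207 under EE2 in diploids (543 by edgeR), 100 under EE2 in triploids (24), 1227 between control groups (630), 2095 between ploidies under EE2 (1338) and 43 for the difference of the EE2 changes (0). Limma-voom called 10 under EE2 in triploids. With the titled outlier the counts were 257, 38, 377 and 484 in the order of the first 4 comparisons. Without both diploid replicates 1 they were 1059 between control groups and 1 for the difference. Of the other pathway genes DESeq2 called 10 under EE2 in diploids (5 by edgeR), 3 in triploids (0) and 5 between control groups (3). Between ploidies under EE2 2 were called with the titled outlier and 3 with the replicate block (5). With only the groups compared the counts over all genes were 193 under EE2 in diploids and 418 between control groups.

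Changes that turned sign were all uncalled. Between control groups these were hsd3b1 (0.029 by limma-voom, 0.14 without both diploid replicates 1) and hsd11b2 (0.155 and 0.054). Between ploidies under EE2 they were hsd20b2 (0.29 by limma-voom, 0.017 with the titled outlier) and cyp17a1 (-0.12 with the titled outlier). In the omissions, log2 changes ran from -0.48 to 0.19 for hsd11b2 and -0.69 to 0.32 for hsd20b2 under EE2 in diploids, and from -0.36 to 0.086 for hsd3b2 in triploids. Between control groups they ran from -0.34 to 0.14 for hsd3b1 and -0.30 to 0.36 for hsd11b2. Between ploidies under EE2 they ran from -1.06 to 0.026 for hsd3b1, -0.21 to 0.41 for cyp17a1 and -0.54 to 0.47 for hsd20b2. For the difference of the EE2 changes they ran from -0.97 to 0.12 for hsd3b1 and -0.23 to 0.16 for hsd17b3. The call of cyp11c1 in diploids was lost under 5 of 10 alternatives and that of CYP11A1 in triploids under 2, limma-voom and the replicate block. Group means of CPM moved by less than 1 SD under both other scalings. The lowest read pairs were those of hsd20b2, 3 to 42 a library.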
